A study of Rattus norvegicus with 24 samples.

Results

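The genes described here mark the Purkinje cells and granule cells of the cerebellum: Pcp2, Ppp1r17, Car8 and Calb1 for Purkinje cells, Zic1, Neurod1, Cbln1 and Cbln3 for granule cells, and En2 for the embryonic territory from which the cerebellum forms. They were found by gene symbol in the annotation of the array platform. The annotation gave 9 probe sets to 8 of the 9 genes, of 14217 genes with a probe set of their own symbol, and 31042 probe sets were tested in all. Cbln1 had 2 probe sets, 1376873_at (probe set 1) and 1390869_at (probe set 2). The others were 1372936_at for Pcp2, 1378101_at for Ppp1r17, 1398431_at for Car8, 1370201_at for Calb1, 1369524_at for Zic1, 1387288_at for Neurod1 and 1378674_at for En2. Cbln3 was not analysed here.

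The study set 2 rat models of attention deficit hyperactivity disorder (ADHD) side by side, one inherited and one caused by a chemical exposure. RNA from 6 brain regions was measured on Affymetrix Rat RAE 230 2.0 arrays in 4 strain groups, with 1 array for each region of each strain group, 24 in all. The rats were 28 males aged 55 to 65 days. The groups were 8 spontaneously hypertensive rats (SHR), which carry the inherited model, 8 Wistar-Kyoto rats (WKY), 8 untreated Sprague-Dawley rats (SD) and 4 rats of that stock given polychlorinated biphenyls (SD-PCB), which carry the exposure model. The regions were the cerebellar vermis, the substantia nigra with the ventral tegmental area (SN/VTA), the prefrontal cortex, the hippocampus, the dorsal striatum and the ventral striatum. The congener, dose and timing of the exposure, and whether an array held RNA of 1 rat or of a pool, are not given in the sources used here. No part of the labels names separate animals for the arrays.

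The cerebellar cortex is built around a single output neuron, the Purkinje cell, which inhibits the deep nuclei. It receives excitation from the parallel fibres of granule cells, the most abundant neurons of the brain. Purkinje cells are known for dense calcium buffering and for strong release of calcium through the inositol trisphosphate receptor, and granule cells secrete cerebellin, which ties their terminals to the Purkinje cell spine. The vermis, the midline of the cerebellum, is one of the regions often studied in ADHD.

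Promoter sequences of RefSeq (build GRCr8) were matched by symbol to 4 of the 9 genes, Pcp2, Ppp1r17, Neurod1 and En2. They are shown because these genes, of different cell types, were all far higher in the vermis than elsewhere, while they differed from each other outside it. The 250 bases before the start are printed 5′ to 3′ in the direction of the gene. The Pcp2 window lies at chr12:6481308-6481557 (minus strand) and that of Ppp1r17 at chr4:86543871-86544120 (plus strand). The Neurod1 window lies at chr3:84770455-84770704 (minus strand) and that of En2 at chr4:7960794-7961043 (minus strand). Capitals mark matches on either strand to AGGTCA, the core of the element bound by the orphan receptor RORA, a regulator of Purkinje cell maturation, and to CANNTG, the E-box bound by basic helix-loop-helix factors such as NEUROD1. The letters of these 2 motifs did not overlap in any of the windows.
Pcp2: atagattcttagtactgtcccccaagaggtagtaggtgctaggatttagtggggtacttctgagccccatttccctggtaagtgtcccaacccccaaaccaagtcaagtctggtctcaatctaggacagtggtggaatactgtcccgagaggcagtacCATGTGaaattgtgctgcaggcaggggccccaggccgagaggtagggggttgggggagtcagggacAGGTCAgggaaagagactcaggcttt
Ppp1r17: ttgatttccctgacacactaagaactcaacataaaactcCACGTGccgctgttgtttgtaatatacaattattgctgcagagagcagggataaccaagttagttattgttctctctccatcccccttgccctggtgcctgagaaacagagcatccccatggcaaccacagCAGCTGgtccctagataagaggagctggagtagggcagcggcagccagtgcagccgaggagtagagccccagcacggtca
Neurod1: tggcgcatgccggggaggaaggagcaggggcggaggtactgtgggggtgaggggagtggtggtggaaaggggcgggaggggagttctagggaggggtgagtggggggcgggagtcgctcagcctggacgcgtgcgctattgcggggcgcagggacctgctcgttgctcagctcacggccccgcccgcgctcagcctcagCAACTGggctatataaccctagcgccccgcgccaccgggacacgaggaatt
En2: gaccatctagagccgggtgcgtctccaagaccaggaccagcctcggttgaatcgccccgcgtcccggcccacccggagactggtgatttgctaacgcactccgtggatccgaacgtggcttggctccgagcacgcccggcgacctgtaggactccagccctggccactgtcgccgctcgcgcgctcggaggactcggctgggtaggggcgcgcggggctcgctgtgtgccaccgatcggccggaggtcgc
AGGTCA occurred in 1 of the 4 windows, that of Pcp2, beginning 26 bases before the start, and in 14.1% of all 33469 promoter windows of this length. CANNTG occurred in 3 of the 4 windows, those of Pcp2, Ppp1r17 and Neurod1, and in 65.5% of all windows. The matches were CATGTG in Pcp2, CACGTG and CAGCTG in Ppp1r17, and CAACTG in Neurod1. The En2 window held neither motif. GC content was 54.0% for Pcp2 and 51.6% for Ppp1r17, and 69.2% for Neurod1 and 70.0% for En2, against a median of 51.2% over all windows and a interquartile range of 44.0% to 60.0%. The windows of both Purkinje cell genes thus fell inside that range and those of both transcription factor genes above it. A match is a run of letters and not a measured site.

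The deposited values are linear MAS5 signals, scaled on each array to nearly the same trimmed mean (496.5 to 498.4). The median signal of an array ran from 89.0 to 183.8 and moved with strain group: it was 130.7 to 183.8 on the SD arrays, 131.7 to 178.2 on the SHR arrays, 108.9 to 152.6 on the WKY arrays and 89.0 to 126.2 on the SD-PCB arrays. Two-sided tests were made with limma on log2(signal + 1) and adjusted by the Benjamini-Hochberg method over all 31042 probe sets, and a gene was called where the adjusted p was under 0.05. Precision is limited by how many arrays there are. The p-values measure the spread between these arrays, which may be technical. Of the arrays outside the vermis, 2 stood apart in the genes described here. On the prefrontal cortex array of WKY, all 9 member probe sets were the highest of the 4 prefrontal arrays, as were 19.0% of all probe sets. On the SN/VTA array of SD-PCB, En2 and 5 of 6 dopamine neuron genes were the lowest of 4, as were 42.4% of all probe sets. On that same array 5 of the 9 member probe sets were the highest of 4: Ppp1r17, Calb1, Zic1 and both of Cbln1. Calls that change without either array are given with and without it.

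All 9 probe sets of the 8 genes were higher in the vermis than in the mean of the other 5 regions, at an adjusted p under 0.05 and in 4 of 4 strain groups each. Of all probe sets, 19.5% were called higher in the vermis. The median difference of the 9 was 5.51 on the log2 scale, against 0.24 over all probe sets. The vermis arrays did not overlap with any of the other 20 arrays for 8 of the 9 probe sets, a pattern found for 1.83% of all probe sets, and the exception was Zic1. In such tissue samples, fewer cells of a type and less RNA per cell cannot be told apart.

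**Figure D1:**
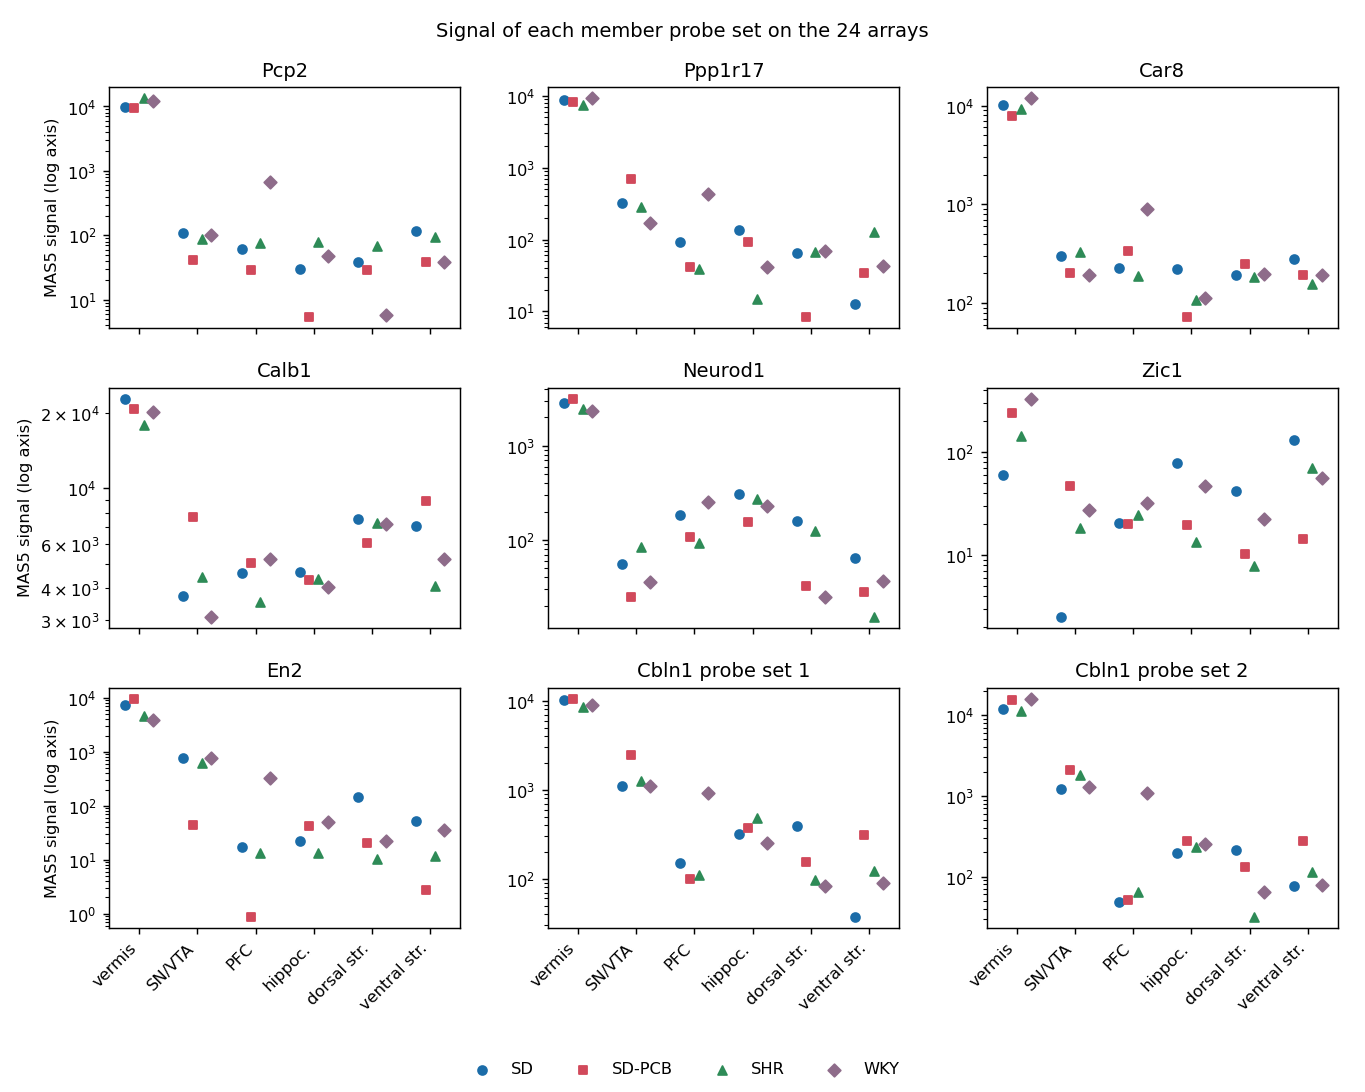
MAS5 signal (log axis) of the 9 member probe sets on the 24 arrays, by region, with 1 point per array coloured by strain group. SN/VTA is substantia nigra with ventral tegmental area, PFC prefrontal cortex, and str. striatum. The 4 vermis arrays lie above the other 20 for each probe set other than Zic1, and the WKY point of the prefrontal cortex lies above the other 3 in each panel.

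Pcp2 encodes a Purkinje cell protein that binds inhibitory G protein subunits. Its vermis signal was 9650.3 in SD, 9371 in SD-PCB, 13406 in SHR and 12009 in WKY. Outside the vermis it ran from 5.44 to 116 on 19 arrays and reached 668 on the prefrontal cortex array of WKY. The lowest vermis signal was 14.0 times the highest signal elsewhere. The difference was 7.70 ± 0.52 (log2, SE; adjusted p = 1.65e-12, limma), the second largest of all 31042 probe sets, and it was 7.90 ± 0.41 without the prefrontal cortex array of WKY.

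Ppp1r17 encodes a substrate of cyclic GMP-dependent protein kinase that inhibits protein phosphatases. Its vermis signal was 8734 in SD, 8243 in SD-PCB, 7494 in SHR and 9215 in WKY, the highest being 1.23 times the lowest. Elsewhere the signal ran from 8.44, on the dorsal striatum array of SD-PCB, to 702, on the SN/VTA array of SD-PCB. The vermis difference was 6.77 ± 0.56 (log2, SE; adjusted p = 1.14e-10, limma), the fourth largest of all probe sets.

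Car8 encodes a relative of the carbonic anhydrases that lacks their enzyme activity and binds the inositol trisphosphate receptor. It had vermis signals of 10122 in SD, 7776 in SD-PCB, 9303 in SHR and 11839 in WKY. Outside the vermis its signal was 73.1 to 336 on 19 arrays and 901 on the prefrontal cortex array of WKY. The vermis difference was 5.51 ± 0.25 (log2, SE; adjusted p = 4.90e-16, limma), the smallest error among the members with a difference above 5.

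Calb1 encodes calbindin, a calcium buffer that Purkinje cells share with striatal, midbrain and hippocampal neurons. Its vermis signal was 22802 in SD, 20704 in SD-PCB, 17834 in SHR and 20130 in WKY. It was also bright on every other array, from 3073 on the SN/VTA array of WKY to 8878 on the ventral striatum array of SD-PCB. The vermis arrays were all higher, the lowest by 2.01 times, and the difference was 1.97 ± 0.14 (log2, SE; adjusted p = 7.94e-12, limma). By size it ranked 1081 among all probe sets, the lowest rank among the members.

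Among the granule cell genes, Neurod1 encodes a basic helix-loop-helix factor of granule neuron differentiation. Its vermis signal was 2812 in SD, 3167 in SD-PCB, 2427 in SHR and 2364 in WKY. The other 20 arrays ran from 15.2 to 310.3, with the highest in the hippocampus of SD. The vermis difference was 5.05 ± 0.35 (log2, SE; adjusted p = 3.54e-12, limma).

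Cbln1 encodes the cerebellin precursor that granule cells secrete, which links presynaptic neurexins to the delta glutamate receptor of Purkinje cells. Probe set 1 gave vermis signals of 10186 in SD, 10524 in SD-PCB, 8559.8 in SHR and 9035 in WKY. Probe set 2 gave 11942 in SD, 15497 in SD-PCB, 11313 in SHR and 15894 in WKY. Both separated the vermis from all other arrays, by 3.48 times for probe set 1 and 5.45 times for probe set 2 at the nearest points. Their differences were 5.12 ± 0.42 (adjusted p = 9.57e-11) and 5.98 ± 0.47 (adjusted p = 3.50e-11; log2, SE, limma).

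Zic1 encodes a zinc finger factor of granule cell precursors. It was dim on this array, with vermis signals of 60.0 in SD, 241 in SD-PCB, 143 in SHR and 332 in WKY. Outside the vermis it ran from 2.52 in the SN/VTA of SD to 132 in the ventral striatum of SD, so the SD vermis array lay below the SD ventral striatum array. The difference still passed, at 2.61 ± 0.62 (log2, SE; adjusted p = 0.00175, limma), and the vermis was the higher in each strain group against the mean of its other 5 regions. Without detection calls it cannot be said which of these signals were above background.

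En2 encodes a homeobox factor that patterns the midbrain and the cerebellum. Its vermis signal was 7294 in SD, 9616 in SD-PCB, 4574 in SHR and 3939.8 in WKY, with a spread of 2.44 times between the highest and lowest array. The lowest vermis signal was 5.03 times the highest signal elsewhere, which was in the SN/VTA. The vermis difference was 7.21 ± 0.70 (log2, SE; adjusted p = 2.74e-09, limma), the third largest of all probe sets.

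Other genes of the same cells, taken as 1 probe set per gene, also ran higher in the vermis. These and the lists below were chosen with earlier results of these data known, so their counts are descriptions and not independent support. Of all 14217 genes, 16.3% were called higher and 19.3% lower there, with a median of 0.06. Of 14 further Purkinje cell genes 14 were higher and 0 lower, with a median of 2.08. Atp2a3, a calcium pump of the endoplasmic reticulum, was 5.41 ± 0.27 higher and Pvalb, the calcium buffer parvalbumin, 3.44 ± 0.28. Gng13, a G protein gamma subunit, was 2.54 ± 0.15 higher, and Itpr1, the inositol trisphosphate receptor of Purkinje cells, 1.51 ± 0.09 (log2, SE). Adjusted p in limma ran from 3.60e-15 for Atp2a3 to 6.22e-11 for Pvalb among these 4.

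Of 20 further granule cell genes, 17 were higher and 0 lower in the vermis, with a median of 1.93. The transcription factors Pax6 and Etv1 were 3.18 ± 0.21 and 2.06 ± 0.08 higher. Chn2, a Rac GTPase-activating protein, was 2.32 ± 0.13 higher, and Reln, the secreted protein that guides Purkinje cell placement, 2.32 ± 0.16 (log2, SE). Of these lists, 2 of the Purkinje cell genes and 4 of the granule cell genes stood in another list too. Adjusted p in limma was 2.51e-17 for Etv1, 4.05e-14 for Chn2, 7.52e-13 for Pax6 and 2.47e-12 for Reln.

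Relatives of the members were divided. Of 4 cerebellin family genes and partners 1 was higher and 1 lower: Nrxn3, a neurexin, at 1.04 ± 0.11, and Cbln2, a cerebellin of forebrain neurons, at -3.68 ± 0.23 (log2, SE; adjusted p = 2.89e-08 and 4.51e-13, limma). Cbln2 thus lay opposite to Cbln1, at 157 to 268 in the vermis against 7493 to 8474 in the prefrontal cortex. Of 4 Zic and NeuroD relatives 2 were higher and 0 lower, namely Zic4 (2.79 ± 0.29) and Neurod2 (1.54 ± 0.32). Of 8 calcium-binding relatives of Calb1, 4 were higher and 3 lower: Hpcal1, a neuronal calcium sensor, was 2.88 ± 0.14 higher and Calb2, calretinin, 2.91 ± 0.22, while Hpca, the calcium sensor of hippocampal pyramidal cells, differed by -2.49 ± 0.12. Of 8 carbonic anhydrases 2 were higher and 2 lower: Car4 (2.39 ± 0.31) and Car10 (1.66 ± 0.20) were higher, and Car11 (-1.34 ± 0.15) and Car2 (-0.58 ± 0.12) were lower. Every value named here passed at an adjusted p under 0.05 in limma.

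Markers of other cells that a vermis sample can hold were mixed. Of 8 Bergmann glia genes 5 were higher and 1 lower, of 8 interneuron and unipolar brush cell genes 4 and 1, and of 6 cerebellar nucleus and brainstem genes 2 and 1. Gdf10, a Bergmann glia growth factor, was 3.47 ± 0.32 higher, and Eomes, the factor of unipolar brush cells, 5.78 ± 0.57 (adjusted p = 8.15e-10 and 3.58e-09, limma). Oligodendrocyte genes were higher for 1 and lower for 4 of 7, meningeal genes higher for 1 and lower for 0 of 8, and blood genes higher for 1 and lower for 0 of 3. Of 6 choroid plexus genes 1 was higher and 0 lower. Striatal medium spiny neuron genes were lower in the vermis for 8 of 8. Midbrain dopamine neuron genes were higher there for 1 of 6 (Ret) and lower for 0, and hippocampal neuron genes higher for 1 and lower for 2 of 6.

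Outside the vermis, each region was compared with the other 4 over the 20 remaining arrays. In the SN/VTA 4 of the 9 probe sets were called higher and 0 lower, where 8.68% of all probe sets were called higher. They belonged to En2, Cbln1 and Ppp1r17, a patterning factor, a granule cell gene and a Purkinje cell gene. The median difference of the 9 was 0.76 against -0.04 over all probe sets.

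En2 had SN/VTA signals of 783 in SD, 43.7 in SD-PCB, 616 in SHR and 766 in WKY. The SD-PCB array lay 14.1 times below the lowest of the others, while the other 3 were close to each other. In the 12 hippocampal and striatal arrays En2 ran from 2.69 to 148. The difference was 3.94 ± 0.73 (log2, SE; adjusted p = 0.000248, limma), and 4.48 ± 0.83 (adjusted p = 0.000229) without the SD-PCB array of the SN/VTA.

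Cbln1 was high in the same region by both probe sets. Probe set 1 gave 1092 in SD, 2457 in SD-PCB, 1271 in SHR and 1114 in WKY, and probe set 2 gave 1223 in SD, 2076 in SD-PCB, 1793 in SHR and 1272 in WKY. All 4 arrays lay above the 12 hippocampal and striatal arrays, which reached 486 for probe set 1 and 276 for probe set 2. The differences were 2.94 ± 0.46 (adjusted p = 3.27e-05) and 3.58 ± 0.52 (adjusted p = 1.04e-05; log2, SE, limma). On the SD-PCB array Cbln1 was thus the highest of the 4, where En2 was the lowest.

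Ppp1r17 in the SN/VTA was 325 in SD, 702 in SD-PCB, 287 in SHR and 171 in WKY, against 8.44 to 134 in the hippocampus and striatum. In the prefrontal cortex, also part of the comparison, it was 434 in WKY and 38.8 to 93.7 in the other strain groups. The SN/VTA difference of Ppp1r17 was 2.61 ± 0.64 (log2, SE; adjusted p = 0.00427, limma). Without the SD-PCB array it was 2.02 ± 0.72 with an adjusted p of 0.0509, so it was not called in that fit. The call held in the other 12 of 13 alternatives, among them the fit without any SD-PCB array. The other 5 probe sets were not called: Pcp2 differed by 0.76 ± 0.61, Car8 by 0.31 ± 0.29, Calb1 by -0.27 ± 0.15 and Zic1 by -0.76 ± 0.65. Neurod1 was lower in the SN/VTA in 3 of 4 strain groups, with an adjusted p of 0.0950 (limma). Without the SD-PCB array Calb1 was called lower, at -0.50 ± 0.14 (adjusted p = 0.0163, limma).

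**Figure D2:**
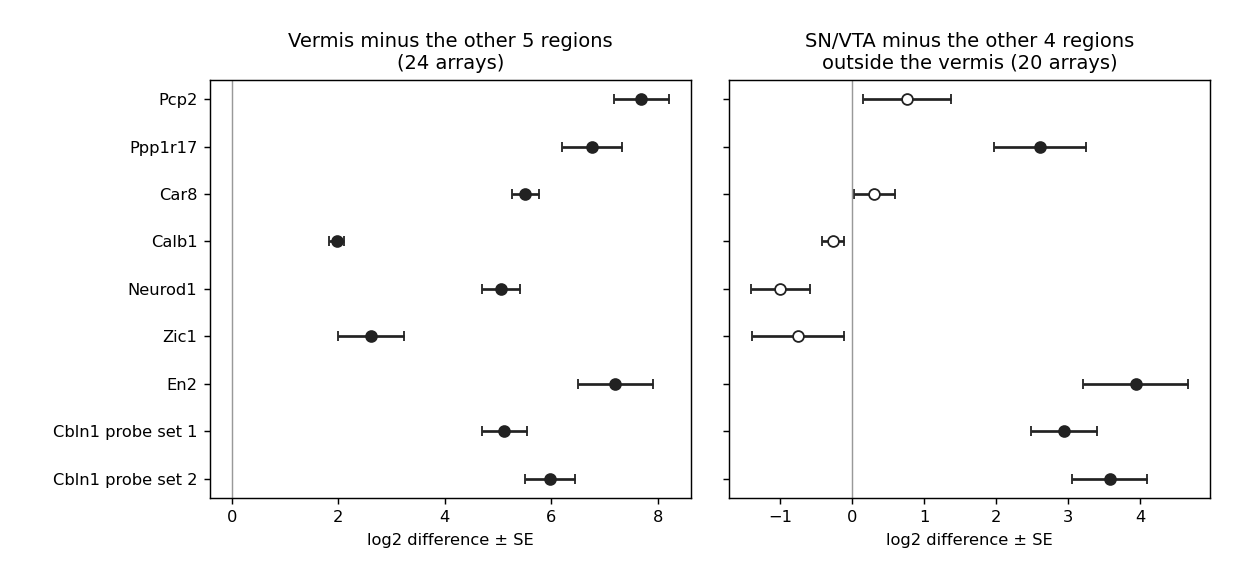
Log2 difference ± SE (limma) of each member probe set, in the vermis against the other 5 regions (left, 24 arrays) and in the SN/VTA against the other 4 regions outside the vermis (right, 20 arrays). Filled points had an adjusted p under 0.05 over all 31042 probe sets: all 9 on the left, and En2, both Cbln1 probe sets and Ppp1r17 on the right.

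Dopamine neuron genes marked the same samples. Of 6 measured, 4 were higher in the SN/VTA and 0 lower, where 12.5% of all genes were higher, and their median was 3.32. On the SD-PCB array Th, the enzyme that limits the making of dopamine, was at 217 against 1367 to 3742 on the other 3, and Slc6a3, the dopamine transporter, at 955 against 5916 to 8411. In all, 5 of the 6 dopamine neuron genes and 3 of the 9 member probe sets (Pcp2, Neurod1 and En2) were lowest on that array, as were 42.4% of all probe sets. The summed signal of the dopamine neuron list was 8022 there and 17701 to 25102 on the other 3. All 7 oligodendrocyte genes were also lowest there. Their part in the low En2 value was not tested.

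**Figure D3:**
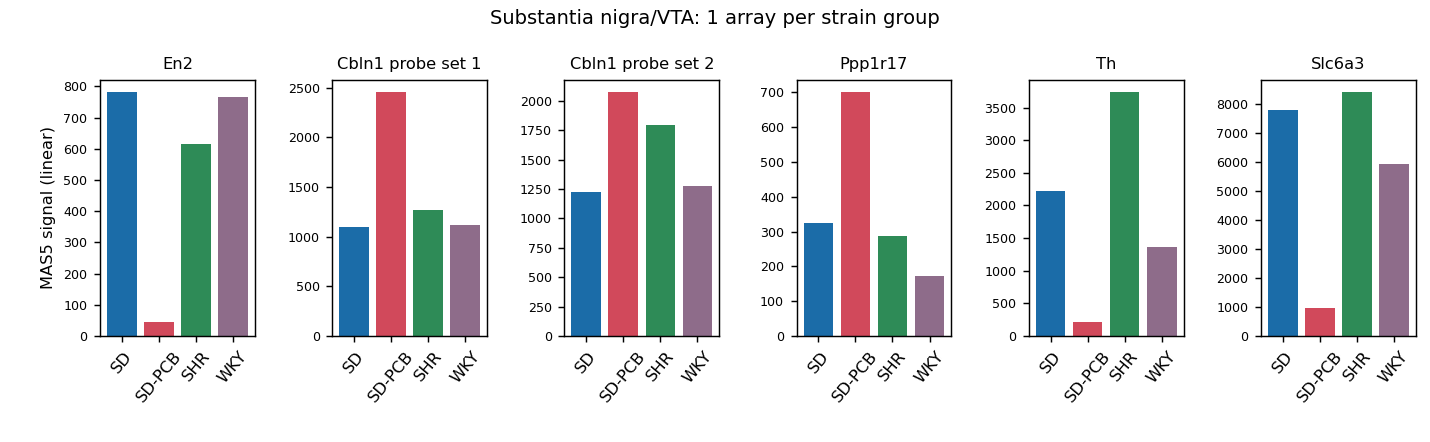
MAS5 signal (linear axes from 0, each panel with its own scale) on the 4 SN/VTA arrays, 1 bar per strain group, for the members called higher there and for the dopamine neuron genes Th and Slc6a3. On the SD-PCB array En2 (43.7), Th (217) and Slc6a3 (955) were the lowest of 4, and Cbln1 (2457 and 2076) and Ppp1r17 (702) the highest.

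In the prefrontal cortex 0 of the 9 were called in either direction, and 3 had an unadjusted p under 0.05 (limma), where 9.68% of all probe sets were called. The WKY array of this region was unlike the other 3. Pcp2 was at 668 there and 29.4 to 76.2 on the others, Ppp1r17 at 434 and 38.8 to 93.7, and Car8 at 901 and 189.9 to 336. The granule cell genes and En2 went the same way. Cbln1 was at 911 and 1091 by its 2 probe sets, against 98.2 to 149 and 48.4 to 63.5, and En2 was at 324, against 0.85 to 17.0. The gap was smaller for Neurod1 (250.2 against 93.5 to 186), Zic1 (32.5 against 19.99 to 24.7) and Calb1 (5242 against 3532 to 5023).

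Set against the vermis array of the same strain group, the WKY prefrontal signal was 5.56% for Pcp2, 4.71% for Ppp1r17, 7.61% for Car8 and 8.23% for En2. It was 10.1% and 6.86% for the 2 Cbln1 probe sets and 10.6% for Neurod1. After the median of the other 3 prefrontal arrays was taken off, the excess lay between 3.83% and 8.98% of the vermis signal for all 9 probe sets. As the WKY array was the highest for each, this excess could only be positive. For Calb1, Zic1 and Neurod1 that array was just 1.04, 1.32 and 1.35 times the highest of the others, so their excess is less certain.

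**Figure D4:**
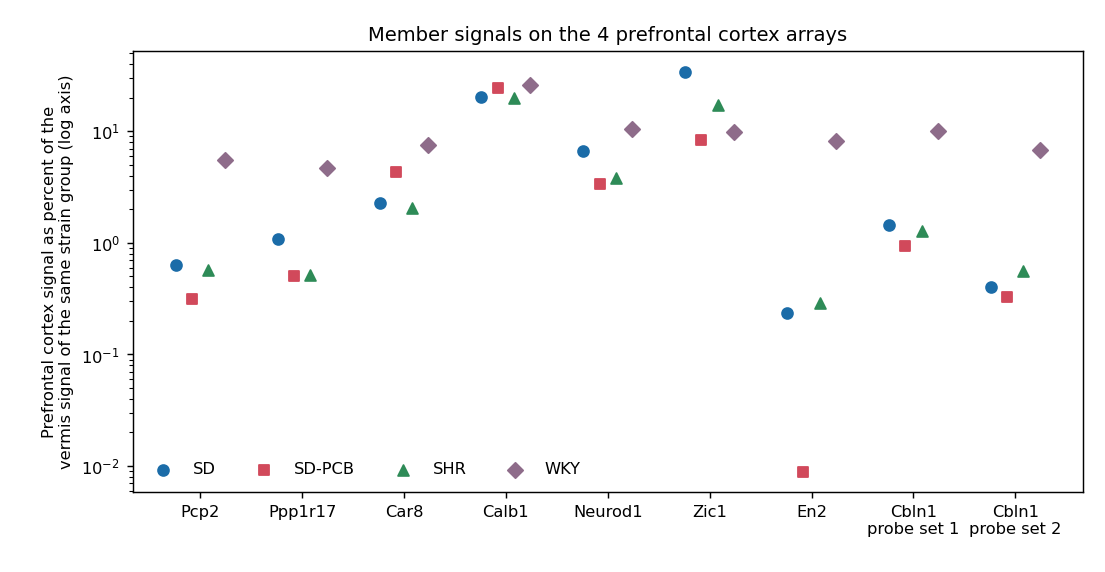
Signal of each member probe set on the 4 prefrontal cortex arrays as a percent of the vermis signal of the same strain group (log axis), 1 point per array. The WKY array lies at 4.71% to 10.6% for the probe sets other than Calb1, which is bright in every region, and is the highest of 4 in percent for each other than Zic1.

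Other genes were less uniform on that array. Gabra6, the GABA-A receptor subunit of granule cells, was at 2297 against 28.8 to 97.0 on the other prefrontal arrays and 17285 to 24459 in the vermis. Among further genes 6 of 20 granule cell genes, 1 of 14 Purkinje cell genes (Atp2a3) and 3 of 8 Bergmann glia genes were highest on it, against 19.0% of all probe sets. The summed signal of the 20 granule cell genes was 33231 there and 28199 to 34430 on the others, and that of the 14 Purkinje cell genes was 32655 and 37184 to 39522, so neither sum was raised. On the vermis arrays the sums ran from 82503 to 110920 for the granule cell genes and from 97945 to 110450 for the Purkinje cell genes. Of 41 probe sets at least 8 times higher in the vermis than in the prefrontal cortex, 26 (63.4%) were above all other prefrontal arrays on the WKY array, with a median excess of 1.23 on the log2 scale. The corresponding share on the other 19 arrays outside the vermis, each within its region, was 4.88% to 45.5%. Cbln2, the forebrain cerebellin, was at 7493 on the WKY array and 7931 to 8474 on the other 3. Where these signals came from was not tested.

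Without the WKY prefrontal array, 3 of the 9 probe sets were called lower in the prefrontal cortex than in the other 4 regions. Of all 31042 probe sets, 1050 were called lower in that fit. Probe set 2 of Cbln1 differed by -2.28 ± 0.37 (adjusted p = 0.000215), probe set 1 by -1.49 ± 0.40 (adjusted p = 0.0220) and En2 by -2.41 ± 0.73 (adjusted p = 0.0472; log2, SE, limma). With the array the same 3 differences were -1.10 ± 0.52, -0.60 ± 0.46 and -1.28 ± 0.73. The directions were the same and the calls depended on this 1 array.

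In the hippocampus 1 of the 9 was higher and 1 lower, where 2.77% of all probe sets were higher and 2.05% lower. Neurod1, which also acts in dentate granule neurons, was at 310.3 in SD, 156 in SD-PCB, 274 in SHR and 228 in WKY. It was above the mean of the other 4 regions in 4 of 4 strain groups, by 1.93 ± 0.41 (log2, SE; adjusted p = 0.00330, limma). Car8 was at 219.7 in SD, 73.1 in SD-PCB, 107 in SHR and 112 in WKY, and lay lower by 1.04 ± 0.29 on the log2 scale (a difference of -1.04; adjusted p = 0.0355, limma), a call lost in 4 of 13 alternatives. The hippocampal marker list was higher in the hippocampus for 4 of 6 genes.

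In the striatum 1 member was called in the dorsal and 2 in the ventral part. Calb1, present in medium spiny neurons, was higher in the dorsal striatum by 0.54 ± 0.15 (log2, SE; adjusted p = 0.0200, limma), the 1 member of 9 called there, where 4.52% of all probe sets were called higher. Its signal was 7519 in SD, 6034 in SD-PCB, 7311 in SHR and 7198 in WKY, overlapping with the ventral striatum (4085 to 8878). This call was lost in 5 of 13 alternatives, among them array median centring (0.44 ± 0.14, adjusted p = 0.0559). Probe set 2 of Cbln1, at -1.59 ± 0.52 there, was not called (adjusted p = 0.0546), and was called lower without the prefrontal cortex array of WKY (-1.30 ± 0.32, adjusted p = 0.0105) and after median centring (-1.69 ± 0.49, adjusted p = 0.0286). In the ventral striatum 2 of 9 were called lower, where 0.786% of all probe sets were. Neurod1 was at 64.7, 28.1, 15.2 and 36.9 in SD, SD-PCB, SHR and WKY, a difference of -1.62 ± 0.41 (adjusted p = 0.0294), and probe set 1 of Cbln1 at 36.9, 311, 123 and 88.9, a difference of -1.69 ± 0.46 (adjusted p = 0.0496; log2, SE, limma). Each of these 2 calls was lost in 5 of 13 alternatives. Probe set 2 of Cbln1, at 75.3 to 276 there, was not called (-1.06 ± 0.52, adjusted p = 0.431), so the 2 probe sets of the gene did not give the same call.

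By mean log2 signal the regions ran in a different order for each gene below the vermis. For En2 it was vermis (12.54), SN/VTA (8.49), dorsal striatum (4.92), hippocampus (4.85), prefrontal cortex (4.31) and ventral striatum (4.11). The last 4 overlapped with each other, and the SN/VTA overlapped with them through its low SD-PCB array alone. For Ppp1r17 it was vermis (13.04), SN/VTA (8.35), prefrontal cortex (6.52), hippocampus (5.76), dorsal striatum (5.37) and ventral striatum (5.33). The last 4 overlapped with each other, and the SN/VTA with the prefrontal cortex alone, through the WKY array. Neurod1 ran from vermis (11.39) to hippocampus (7.88), prefrontal cortex (7.21), dorsal striatum (6.01), SN/VTA (5.53) and ventral striatum (5.04), each overlapping with the next below the vermis. For Pcp2 and Car8 the prefrontal cortex came after the vermis (6.63 and 8.41). Without the WKY array its means were 5.72 for Pcp2 and 7.94 for Car8, under those of the SN/VTA (6.34 and 7.97).

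Between strain groups, the 6 regions served as repeated values. The series description gives 1 set of rats per strain group for all regions, so the p-values measure how well regions agree and may understate the uncertainty about strains. In SHR minus WKY, SHR minus SD and WKY minus SD 0 of the 9 probe sets were called, and 0 had an unadjusted p under 0.05 (limma), where 22.5%, 17.6% and 15.7% of all probe sets were called. The last 2 of these and the SD-PCB comparison share the SD arrays. In SHR minus WKY, En2 differed by -1.50 ± 0.74 and Pcp2 by 0.36 ± 0.55 with all arrays, and by -0.69 ± 0.66 and 1.04 ± 0.46 without the prefrontal cortex array of WKY (log2, SE), none of them called. After array median centring Calb1 (-0.41 ± 0.15, adjusted p = 0.0444) and Car8 (-0.71 ± 0.27, adjusted p = 0.0484) were called lower in SHR. Of all 31042 probe sets, 6039 were called lower and 1677 higher with that centring.

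In SD-PCB minus SD 2 of 9 were called lower and 0 higher, where 27.7% of all probe sets were called lower and the median over all probe sets was -0.37. En2 differed by -2.12 ± 0.74 (adjusted p = 0.0262) and was higher in SD-PCB in 2 of 6 regions, the vermis and the hippocampus. Neurod1 differed by -1.03 ± 0.37 (adjusted p = 0.0326; log2, SE, limma) and was higher in SD-PCB in 1 of 6, the vermis. Pcp2 was lower in SD-PCB in 6 of 6 regions, by -0.04 in the vermis, and its difference of -1.12 was not called with all arrays (SE 0.55, adjusted p = 0.111) but was without the prefrontal cortex array of WKY (SE 0.43, adjusted p = 0.0454). Without that array En2 and Neurod1 were called too (adjusted p = 0.0100 and 0.0284, limma). In that fit 8427 of all 31042 probe sets were called lower. After each array was centred on its median, Pcp2 differed by -0.39 ± 0.53 (adjusted p = 0.572, limma) and was not called. Its SD and SD-PCB signals outside the vermis were dim, at 5.44 to 116.

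The direction of the calls depended on scaling. After each array was centred on its median, 11250 of all 31042 probe sets were called higher and 3294 lower, and of the 9 members 3 were called, all higher in SD-PCB: Calb1 by 0.88 ± 0.15 (adjusted p = 1.69e-05) and the 2 Cbln1 probe sets by 1.15 ± 0.42 and 1.20 ± 0.47 (adjusted p = 0.0266 and 0.0383). En2 (-1.40 ± 0.72, adjusted p = 0.111) and Neurod1 (-0.31 ± 0.36, adjusted p = 0.511) were then not called. Their calls were also lost without the SN/VTA array of SD-PCB, where the differences were -1.67 ± 0.75 (adjusted p = 0.0864) and -0.93 ± 0.39 (adjusted p = 0.0703). With the array median signal, which was lowest on the SD-PCB arrays, as a covariate, 0 of all 31042 probe sets were called. The loss of calls in that fit was thus not particular to these genes. En2 there differed by -0.90 ± 2.48 (adjusted p = 0.959) and Neurod1 by 0.89 ± 1.19 (adjusted p = 0.886). In the vermis, where both had their highest signals, SD-PCB was above SD for both.

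Within the vermis there was 1 array per strain group, so the values have no test. Probe sets with a mean vermis signal of 2000 or more differed by 1.5 times or more for 10.8% in SHR against WKY, 15.4% in SD-PCB against SD, 17.9% in SHR against SD and 18.0% in WKY against SD. Of the 8 bright member probe sets, En2 alone passed 1.5 times, at -0.67 (log2) in SHR against SD and -0.89 in WKY against SD, and none did in the other 2 comparisons. The dim Zic1 passed in all 4, from -1.21 in SHR against WKY to 2.45 in WKY against SD. The median of the 9 was -0.17 in SHR against WKY, 0.05 in SD-PCB against SD, -0.21 in SHR against SD and 0.08 in WKY against SD. Over all probe sets the corresponding medians were 0.11, -0.21, 0.04 and -0.08.

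The Purkinje cell genes differed in which array was highest. Pcp2 was highest in SHR, Ppp1r17 and Car8 in WKY, and Calb1 in SD. Car8 spanned 1.52 times and Calb1 1.28 times over the 4 arrays. How many members lay above or below depended on scaling. In SD-PCB against SD 5 of 9 were higher as deposited and 9 of 9 after each array was centred on its median. In SHR against WKY 3 of 9 were higher as deposited, 0 of 9 after centring and 5 of 9 after quantile normalization. On centring, the median over all probe sets moved too. It went from -0.21 to 0.28 in SD-PCB against SD and from 0.11 to -0.11 in SHR against WKY (log2). Among other cells, the summed signal of the 6 choroid plexus genes ran from 3930.5 in WKY to 34833 in SD-PCB on these arrays, and that of the 8 meningeal genes from 5296 in WKY to 15700 in SHR. Their part in the vermis differences was not tested.

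**Figure D5:**
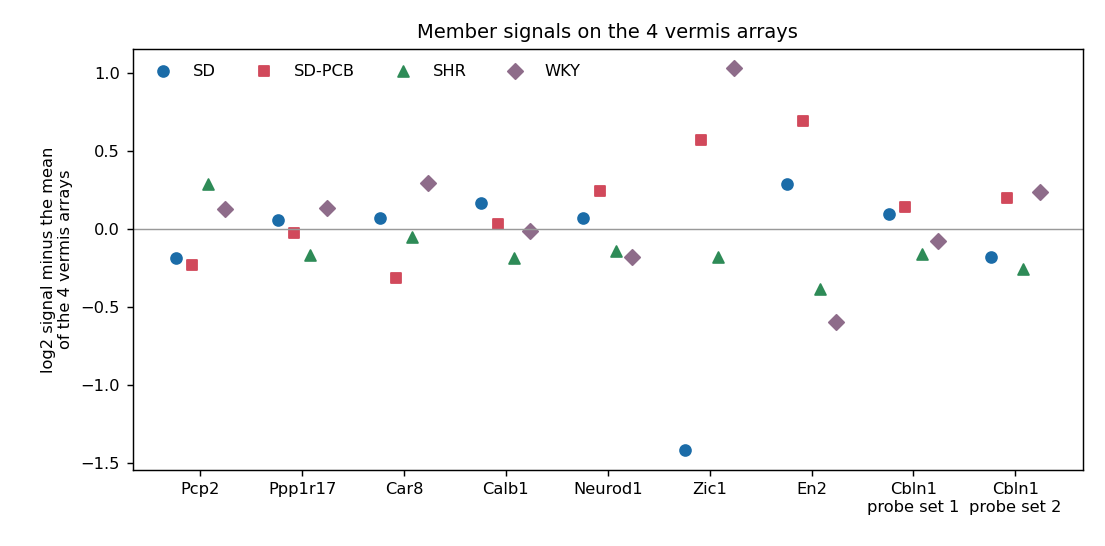
Log2 signal of each member probe set on the 4 vermis arrays minus the mean of the 4, with 1 array per strain group and no error. Zic1, the dim probe set, spreads most, and En2 is higher in SD and SD-PCB than in SHR and WKY.

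For each member the 2 other genes with the most alike pattern over the 6 region means (24 arrays, root mean square of the log2 difference after centring, among 13175 probe sets with 1 symbol) were found. Pcp2 was nearest to Gabra6 (0.62), the receptor subunit of granule cells, and to Ppp1r17 (0.90). Ppp1r17 was nearest to Atp2a3 (0.68) and Cbln1 (0.70), and Car8 to Sdc1 (0.24) and another probe set of Gabra6 (0.45). En2 was nearest to Cbln1 (0.66) and Ppp1r17 (0.73), which with it made up the genes called higher in the SN/VTA. Probe set 1 of Cbln1 was nearest to Atp2a3 (0.57) and Uncx (0.61), and probe set 2 to En2 (0.66) and Ppp1r17 (0.70). Calb1 was nearest to Chd7 (0.06) and Rere (0.12), Zic1 to Shisa8 (0.21) and Lao1 (0.36), and Neurod1 to Eomes (0.62) and Gprc5c (0.77). The region means include the prefrontal cortex array of WKY, on which both Pcp2 and Gabra6 were the highest of that region. The points share arrays with each other and with the region calls, and the distances are descriptions.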

How the data were processed

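RNA of 6 brain regions in 4 strain groups was measured on 24 arrays. The extract was made with Qiagen RNeasy and the label added with Nugen's Ovation kit, per the labels. The authors deposited 1 linear signal intensity per probe set and array, made with MAS5 per the submitters' processing notes. The MAS5 version, detection calls and scan dates are not given in the sources used here. Of 31099 probe sets, 57 controls were left out and 31042 tested, with no filter on low signals, since such a filter keeps or drops a regional gene by its vermis level. The platform annotation gave 1 gene symbol to 20826 probe sets, several to 436 and none to 9780. Where a list needed 1 probe set per gene, the brightest was used.

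Signals were taken as log2(signal + 1) and fitted in limma (3.58.1, under R 4.3.3) using empirical Bayes moderation, a trend on mean signal and two-sided tests. The vermis contrast used 24 arrays with a strain group term (15 residual degrees of freedom), regions outside the vermis 20 arrays (12 degrees) and strain groups 24 arrays with a region term (15 degrees). The vermis contrast was tried on simulated arrays with independent noise. Of 200 probe sets raised 4 times in the vermis, 66% were recovered. The other contrasts were not tried in this way. All member probe sets are named, and for each other list up to 4 genes of smallest p. Gabra6, Th, Slc6a3, Cbln2, Gdf10, Eomes and Ret are also named for their values on arrays that stood apart or in a count. The members and lists were chosen with earlier results of these data known. Alternatives were other scalings, a pseudocount of 16, a filter on the mean, other variance settings and left-out strain groups, regions or arrays.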

Additional observations from a re-analysis of the deposited data

Results flagged for a closer look

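Of 54 sets of 4 arrays (9 probe sets in 6 regions), 8 had 1 array farther from the others than Dixon's 95% limit. The limit was applied to linear signals. Chance passes it in about 1 of 20 independent sets of normally distributed values. These sets share arrays and normality was not tested, so that rate is only a rough guide here. In the prefrontal cortex 5 of the 8 were the WKY array as the highest of 4: Pcp2 at 667.6, Ppp1r17 at 434.3, Cbln1 at 911.3 and 1090.7 by its 2 probe sets, and En2 at 324.1. In the SN/VTA the SD-PCB array was far the highest for probe set 1 of Cbln1, at 2457 against 1092 to 1271. In the dorsal striatum the SD-PCB array was the lowest for Ppp1r17, at 8.44 against 63.9 to 69.7, and the SD array the highest for En2, at 148.5 against 10.3 to 21.9. The difference between SHR minus WKY and SD-PCB minus SD was called for 0 of 9 probe sets, where 42.6% of all probe sets were called. Of the 9, 1 had an unadjusted p under 0.05 (limma). The median of this difference was -0.14 over the 9 and 0.60 over all probe sets (log2).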

How the results depend on the processing

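All 9 vermis calls kept their direction and passed in each alternative in which they were tested, 12 for most and 11 for Zic1 and En2, which the filter on the mean leaves out. In the SN/VTA the calls of En2 and both Cbln1 probe sets held in all alternatives run, and that of Ppp1r17 in 12 of 13. The hippocampal call of Neurod1 held in 13 of 13. The remaining calls were less firm. In the prefrontal cortex, where 0 were called, 1 was called after array median centring, 1 with the filter on the mean, 2 with array weights, 1 in the fit on all 24 arrays and 3 without the WKY array of that region, an alternative chosen after seeing the data. Leaving out 1 strain group gave 0 to 2. In the hippocampus (2 called) the fit with no trend called 1, and leaving out 1 strain group gave 1 to 2. In the dorsal striatum (1 called) quantile normalization, a pseudocount of 16, the filter on the mean, the fit on all 24 arrays and the fit without the prefrontal cortex array of WKY each called 2, array weights called 3 and the fit with no trend 0, array median centring called 1, which was Cbln1 in place of Calb1, and leaving out 1 strain group gave 0 to 2. In the ventral striatum (2 called) the filter on the mean called 1 and the fit with no trend 0, and leaving out 1 strain group gave 0 to 1. In SHR minus WKY (0 called) array median centring called 2, array weights 1 and the fit on the 2 strain groups compared 1. In SD-PCB minus SD (2 called, both lower) array median centring called 3, all higher and neither En2 nor Neurod1, the fit without the prefrontal cortex array of WKY called 3 with Pcp2 added, a pseudocount of 16 and the filter on the mean each called 1, and quantile normalization, no trend, array weights, leaving out the SN/VTA array of SD-PCB and the array median signal as a covariate each called 0, these last 2 and the fit without the prefrontal array being chosen after seeing the data. Leaving out 1 region gave 0 to 2. With the covariate 0 of all 31042 probe sets were called in SD-PCB minus SD, members or not. Neurod1 then turned from lower to higher in SD-PCB, at 0.886 (log2), by less than its SE. The cause of these changes was not tested. The labels give the arrays no replicate numbers, and the fits already hold strain group or region as a term. With 1 array per region and strain group and no detection calls, the precision of dim signals is unknown.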
